A study of Mus musculus with 9 samples.

Results

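Cells make cholesterol and fatty acids from acetyl-CoA along 2 linked routes, and 35 genes of these routes were listed by name for mouse CD8+ T cells. The list takes enzymes of the mevalonate steps, of the steps that turn squalene into cholesterol, of fatty acid synthesis, and of fatty acid elongation and desaturation, together with the sterol sensors that control them. The platform annotation names probes for 34 of the 35, out of 17498 genes measured, and the RNA of Acat2 was not analysed here. No measured value was used to choose the 34 genes, but they were proposed with results of these arrays known. The 34 genes have 54 probes in all, 20 of them with 1 probe and 14 with more, and each value below is the mean over the probes of a gene. Among the genes with 1 probe are Ebp, Scd1, Scd2, Elovl6 and Fads1.

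CD8+ T cells from mice spent 4 days in culture with IL-21, IL-15 or IL-2, each at 10 ng/ml, or without any of them, and every culture was then restimulated for 4 hours in the absence of cytokine. IL-21, IL-15 and IL-2 are growth and differentiation signals for T cells that share a receptor subunit, the common gamma chain. Each of 9 two-colour arrays set RNA of cytokine-cultured cells against RNA of cells cultured without cytokine, with 3 biological replicates per cytokine, so every value is a log2 ratio of cytokine over untreated cells and gives no level. The sources used here do not give the strain, the source animals or the restimulating agent, nor whether the 3 arrays of a replicate share an untreated extract. The ratios describe restimulated cells after the cytokine had been withdrawn, and in a bulk sample fewer cells of a type and less RNA per cell cannot be told apart.

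The direction of the ratios is likely and not settled, because the dyes are stated to be exchanged in replicates 2 and 3, for the IL-21 array of replicate 3 only in a deposited list and not in the design text, and the deposited values do not say whether they were turned. Over all probes, arrays of opposite dye orientation correlated between -0.35 and 0.06, and arrays of the same orientation between -0.03 and 0.67. Between arrays of the same cytokine these ranges were -0.28 to 0.06 and 0.17 to 0.23. Replicate 1 stands in 1 orientation and replicates 2 and 3 in the other. A dye effect therefore does not cancel in the mean ratio of a cytokine, and such means cannot be read as the cytokine's effect alone. All arrays were taken to run as cytokine over untreated, because IL-21 minus IL-2, taken between same-numbered arrays so that any dye effect drops out, correlated at 0.20 and 0.15 between replicate 1 and replicates 2 and 3. For IL-21 minus IL-15 these values were 0.12 and 0.14, and for IL-15 minus IL-2 they were 0.04 and -0.04, which gives no direction. The log base is not stated either, and log2 was taken from the range of the values. The IL-2 array of replicate 3 stood apart, with 13.6% of its probes beyond 1 on the log2 scale, against 4.10 to 6.47% on the other arrays. Because the values are ratios, the CD8+ T cell label could not be checked against marker levels. Of 30 listed markers of CD8+ T, B, myeloid, CD4+ T, NK and erythroid cells, 26 were measured, and limma called 0 of them in each of the 6 comparisons, with 0 to 3 at an unadjusted p under 0.05.

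In mammalian cells the transcription factor SREBP2, made by Srebf2, switches on cholesterol synthesis genes, and SREBP1, made by Srebf1, acts more on fatty acid genes. SCAP, made by Scap, carries both precursors out of the endoplasmic reticulum when sterols are scarce, and the INSIG proteins, made by Insig1 and Insig2, hold SCAP back when sterols are plentiful. Activated T cells are known to turn these routes on to build new membrane.

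SREBP binds promoters together with NF-Y, a factor that recognises the letters CCAAT. Promoters of 3 sterol genes are shown because Ebp was the gene that passed the test after IL-2, Cyp51 lay above 0 on every array, and Hmgcs1 holds a match to TCACNCCAC, a form of the sterol response element. Other forms of the element were not searched, so a promoter without this match may still hold one. Each is the 180 bases before the RefSeq start in GRCm38.p6, written 5′ to 3′ on the gene's strand, with capitals on matches to CCAAT on either strand (ATTGG on the other) and to TCACNCCAC.
Ebp, chrX:8193513-8193692, minus strand: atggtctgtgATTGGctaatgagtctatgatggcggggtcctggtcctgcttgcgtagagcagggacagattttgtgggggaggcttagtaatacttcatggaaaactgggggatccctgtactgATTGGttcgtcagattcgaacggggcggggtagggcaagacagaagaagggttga
Cyp51, chr5:4104698-4104877, minus strand: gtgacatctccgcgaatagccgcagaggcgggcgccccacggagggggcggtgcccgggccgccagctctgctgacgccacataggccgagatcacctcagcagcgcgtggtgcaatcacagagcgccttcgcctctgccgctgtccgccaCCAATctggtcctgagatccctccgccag
Hmgcs1, chr13:119690171-119690350, plus strand: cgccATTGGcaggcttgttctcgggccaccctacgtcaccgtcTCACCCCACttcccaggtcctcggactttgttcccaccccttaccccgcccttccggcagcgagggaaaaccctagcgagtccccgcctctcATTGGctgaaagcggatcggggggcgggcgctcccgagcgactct

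In the stretches shown, CCAAT matches begin 170 and 55 bases before the start in Ebp, 29 in Cyp51, and 176 and 45 in Hmgcs1. The TCACNCCAC match of Hmgcs1 begins at 137 bases. Over 250 bases Hmgcs1 holds 3 matches to CCAAT, not all of them within the stretch shown. Over windows of 250 bases before the start, 22 of the 28 listed genes with a RefSeq window, a number that includes Acat2, held CCAAT on either strand (78.6%), against 37.5% of 27025 genes. A gene was counted when any of its windows held it. Counted by window, 23 of the 38 windows of the listed genes held CCAAT, against 33.8% of 32851 windows. TCACNCCAC, searched on both strands and not overlapping a CCAAT match in Hmgcs1, occurred in 1 of the 28 (3.57%), against 1.22% of all genes. CCAAT was held by 5 of the 9 fatty acid genes with a window, and by 17 of the 19 sterol and sensing genes. Elovl6 and Fads2 were chosen for contrast because they lack it, as do 2 other fatty acid genes, so they do not stand for that arm.
Elovl6, chr3:129532206-129532385, plus strand: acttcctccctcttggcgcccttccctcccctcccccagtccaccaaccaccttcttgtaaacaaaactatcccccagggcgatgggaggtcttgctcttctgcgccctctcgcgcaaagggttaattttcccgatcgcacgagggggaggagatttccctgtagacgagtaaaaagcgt
Fads2, chr19:10101504-10101683, minus strand: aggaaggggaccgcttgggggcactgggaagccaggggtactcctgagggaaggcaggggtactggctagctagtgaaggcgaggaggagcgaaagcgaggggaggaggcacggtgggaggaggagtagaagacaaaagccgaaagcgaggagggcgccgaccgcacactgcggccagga

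After IL-2 culture, 1 of the 34 genes passed the test, Ebp, with limma at a Benjamini-Hochberg adjusted p under 0.05 over all genes, and it rose, as did 0.76% of all genes. No listed gene fell, against 0.04% of all genes. At an unadjusted p under 0.05, 9 of 34 lay above 0 (6.77% of all genes) and 0 lay below it (2.05%). The median over the 34 was 0.18, beside 0.05 over all genes tested. After IL-15 and after IL-21, limma called 0 of the 34, beside 0.126% and 0% of all genes. At an unadjusted p under 0.05, IL-15 had 2 of the 34 above 0 (5.1% of all genes) and 0 below it (2.15%), and IL-21 had 4 above (2.62%) and 0 below (3.43%). Their medians were 0.07 for IL-15 and 0.10 for IL-21, beside 0.00 for all genes in each, but these medians moved with the replicates. Without replicate 1 they were 0.02 for IL-21, -0.02 for IL-15 and 0.12 for IL-2, and without replicate 3 they were 0.24, 0.11 and 0.22. On all 3 arrays of a cytokine, 10 of the 34 genes lay above 0 after IL-21 (11.5% of all genes), 8 after IL-15 (15.1%) and 13 after IL-2 (15.3%).

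**Figure D1:**
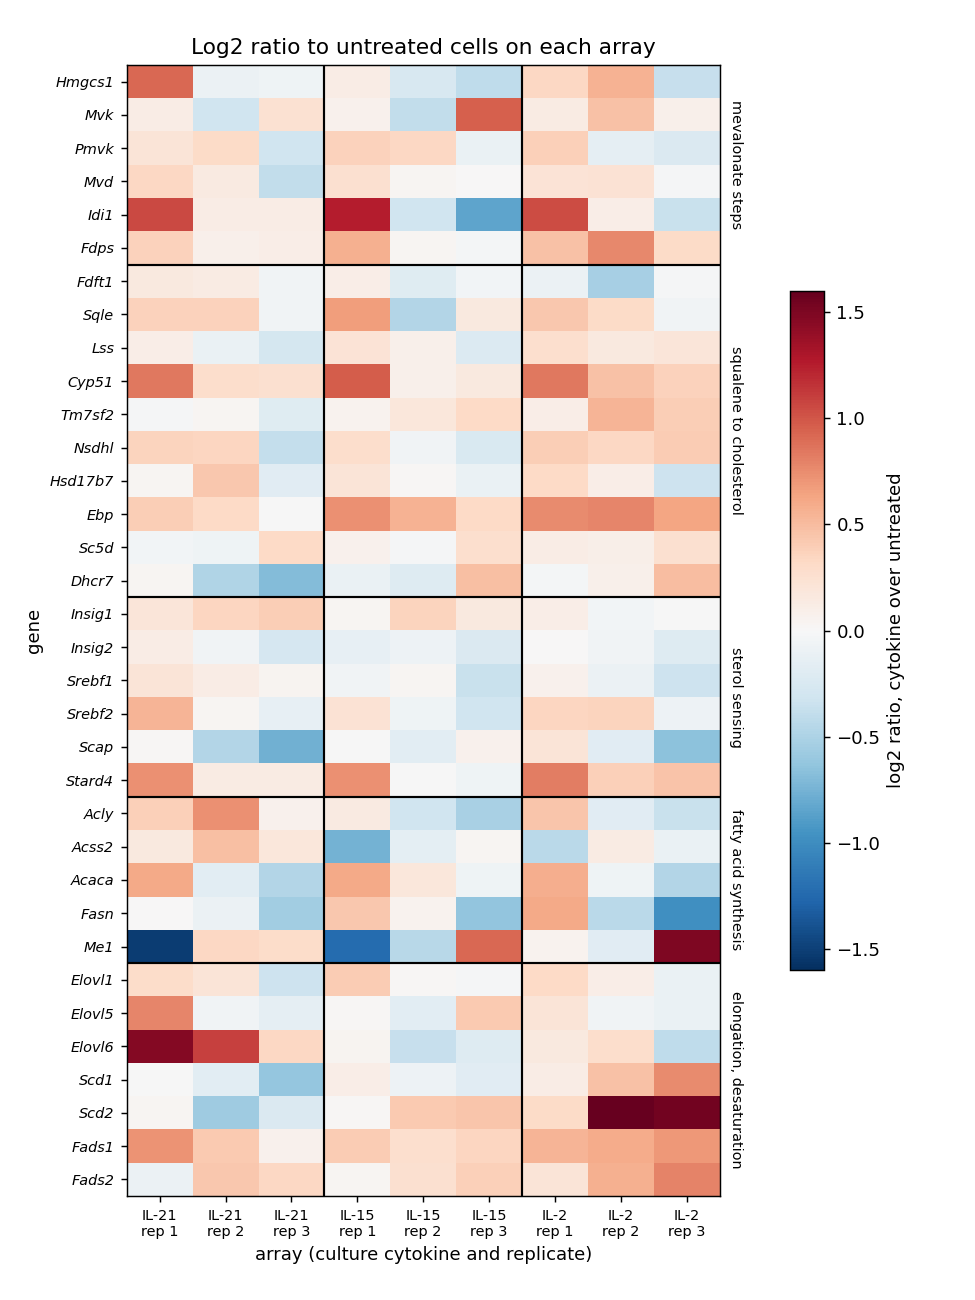
Log2 ratio of cytokine over untreated cells for the 34 genes (rows, grouped by role) on the 9 arrays (columns, 3 replicates each of IL-21, IL-15 and IL-2), red above 0 and blue below. Ebp, Cyp51 and Fads1 keep 1 colour over nearly all arrays, the IL-2 arrays of replicates 2 and 3 are darkest at Scd2, with 1.59 and 1.54, and Elovl6 is darkest after IL-21.

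Among the mevalonate steps, 0 of the 6 genes measured passed the test in any of the 6 comparisons. Fdps makes farnesyl diphosphate, the branch point between sterols and prenyl groups, and had the smallest p of the 6 after IL-2. Its log2 ratio was 0.37, 0.08 and 0.11 on the IL-21 arrays, 0.57, 0.03 and -0.04 on the IL-15 arrays, and 0.47, 0.76 and 0.31 on the IL-2 arrays. All 3 IL-2 arrays were above 0, but they overlapped the IL-15 arrays, and the mean after IL-2 was 0.51 ± 0.15 (SE; limma adjusted p = 0.266). The 3 Fdps probes disagreed, with means over the 9 arrays of -0.13, 0.19 and 0.82, and the most variable probe alone gave 1.33 after IL-2 (limma adjusted p = 0.0841).

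Hmgcs1, which condenses acetoacetyl-CoA into HMG-CoA, had 0.92, -0.09 and -0.07 after IL-21, 0.11, -0.26 and -0.41 after IL-15, and 0.34, 0.55 and -0.36 after IL-2. High and low arrays thus occurred under each cytokine, and the groups overlapped. Idi1, which interconverts the isoprene units, had 1.05, 0.12 and 0.11 after IL-21, 1.26, -0.32 and -0.85 after IL-15, and 1.04, 0.11 and -0.36 after IL-2. In Idi1 the array of replicate 1 was the highest under every cytokine. The means of Mvk, Pmvk and Mvd, the kinases and the decarboxylase between mevalonate and isopentenyl diphosphate, lay between 0.00 and 0.22 under the 3 cytokines.

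From squalene to cholesterol, 10 of 10 genes were measured and 1 passed the test after IL-2 and rose, as did 0.76% of all genes. Ebp, the sterol isomerase late in the route, had 0.39, 0.31 and -0.01 on the IL-21 arrays, 0.73, 0.55 and 0.31 on the IL-15 arrays, and 0.76, 0.78 and 0.64 on the IL-2 arrays. All IL-2 arrays lay above all IL-21 arrays, and the IL-15 arrays overlapped both. Ebp rose after IL-2 by 0.72 ± 0.13 on the log2 scale (SE, n = 3; limma adjusted p = 0.0472), a 1.65-fold ratio, with limma's replicate block giving an adjusted p of 0.0169. That block takes the spread between replicates out of the error, so its p does not measure variation over biological replicates. With the replicate as a random block limma's adjusted p was 0.0440. After IL-15 Ebp was 0.53 ± 0.13 (limma adjusted p = 0.227) and after IL-21 0.23, with an SD of 0.21 over 3 arrays. The call after IL-2 stood near the threshold and was lost when any replicate was left out, although the value stayed between 0.70 and 0.77. The limma adjusted p was 0.170, 0.776 and 0.365 without replicate 1, 2 and 3, and 0.213 without array IL-2 replicate 3.

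Cyp51, the demethylase of lanosterol, was above 0 on all 9 arrays, as was Fads1 among the 34 genes; 1.5% of all genes were. With the signs of the dye-exchanged arrays turned, each was above 0 on 3 of the 9 arrays, and 0 of the 34 genes and 2.11% of all genes were above 0 on all 9. Cyp51 had 0.85, 0.28 and 0.26 after IL-21, 0.97, 0.08 and 0.16 after IL-15, and 0.84, 0.47 and 0.37 after IL-2. Replicate 1 was highest under each cytokine, and the cytokines overlapped. Both Cyp51 probes ran alike, with means over the 9 arrays of 0.42 and 0.53. After IL-2 the mean was 0.56 ± 0.20 (SE; limma adjusted p = 0.410), and with the replicate number as a block limma's adjusted p was 0.0493. That fit takes the spread between replicates out of the error (SE 0.10), so its p does not measure variation over biological replicates. With that block, limma called 4 of the 34 genes after IL-2, Cyp51, Ebp, Stard4 and Fads2, all above 0, beside 1.73% of all genes. With the replicate as a random block instead, Ebp was the 1 gene called (limma adjusted p = 0.0440), and the adjusted p was 0.303 for Cyp51, 0.273 for Stard4 and 0.200 for Fads2. With a dye term, limma called Ebp, Cyp51 and Stard4 after IL-2 (adjusted p = 0.0234, 0.0298 and 0.0280), beside 254 higher and 30 lower over all 17498 genes. The dye term follows replicate 1 against replicates 2 and 3, so it takes that spread between replicates out of the error too.

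Tm7sf2, a sterol reductase that follows Cyp51, had -0.02, 0.03 and -0.20 after IL-21, 0.05, 0.19 and 0.32 after IL-15, and 0.11, 0.54 and 0.39 after IL-2. As a mean over its 2 probes, its IL-21 arrays lay below all arrays of the other cytokines, but on each probe alone the groups overlapped. Nsdhl, a sterol dehydrogenase of the demethylation complex, had 0.36, 0.34 and -0.38 after IL-21, 0.28, -0.06 and -0.25 after IL-15, and 0.40, 0.33 and 0.41 after IL-2. As means over its 3 probes, its IL-2 arrays were alike and lay above all 3 IL-15 arrays, but on each probe alone these groups overlapped. The probes disagreed, with means over the 9 arrays of -0.40, 0.27 and 0.61. On the IL-2 array of replicate 3 they had -0.89, 0.25 and 1.87.

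The other 6 genes of the sterol steps did not pass in any comparison. Lss, which closes the sterol rings, had 0.11, -0.10 and -0.28 after IL-21, 0.22, 0.08 and -0.21 after IL-15, and 0.27, 0.16 and 0.20 after IL-2. The IL-2 arrays of Lss were above all IL-21 arrays, with probe means of -0.14 and 0.24. Dhcr7, the last reductase before cholesterol, had 0.04, -0.49 and -0.69 after IL-21, -0.11, -0.21 and 0.48 after IL-15, and -0.03, 0.09 and 0.50 after IL-2. The Dhcr7 groups overlapped. Squalene synthase Fdft1, squalene epoxidase Sqle, Hsd17b7 and Sc5d had means between -0.21 and 0.23 under the 3 cytokines.

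Of the 6 genes for sterol sensing and transport, limma called 0 in all 6 comparisons. Insig1, the SCAP-retaining protein whose gene is itself an SREBP target, had 0.20, 0.34 and 0.40 after IL-21, 0.03, 0.35 and 0.15 after IL-15, and 0.10, -0.05 and -0.01 after IL-2. As a mean over its 3 probes, all IL-21 arrays were above all IL-2 arrays, and the mean after IL-21 was 0.31 ± 0.11 (SE; limma adjusted p = 0.776). The Insig1 probes had means of -0.10, 0.23 and -0.08 after IL-2 and 0.34, 0.30 and 0.30 after IL-21. On the probe with 0.23 the arrays of IL-21 and IL-2 overlapped. Srebf1 had 0.21, 0.12 and 0.05 after IL-21, -0.06, 0.03 and -0.35 after IL-15, and 0.06, -0.09 and -0.33 after IL-2. Its IL-21 arrays lay above all IL-15 arrays and overlapped the IL-2 arrays in 1 array.

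Srebf2 had means of 0.15 after IL-21, -0.05 after IL-15 and 0.21 after IL-2, with SDs of 0.35, 0.27 and 0.25 over 3 arrays, so the groups overlapped. Its 2 probes disagreed, with means of -0.02 and 0.32 after IL-21, -0.07 and -0.04 after IL-15, and -0.11 and 0.53 after IL-2. Scap had 0.02, -0.47 and -0.77 after IL-21, -0.01, -0.17 and 0.06 after IL-15, and 0.21, -0.18 and -0.66 after IL-2, which did not pass the test (IL-21, limma adjusted p = 0.833). Scap had low arrays after IL-21 and after IL-2, in replicates 2 and 3. Stard4, which moves sterol between membranes, had 0.73, 0.14 and 0.13 after IL-21, 0.73, -0.01 and -0.07 after IL-15, and 0.82, 0.39 and 0.45 after IL-2. The IL-2 mean of Stard4 was 0.55 ± 0.20 (SE; limma adjusted p = 0.391, and 0.0430 with the replicate block). Insig2 had means between -0.15 and -0.07.

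**Figure D2:**
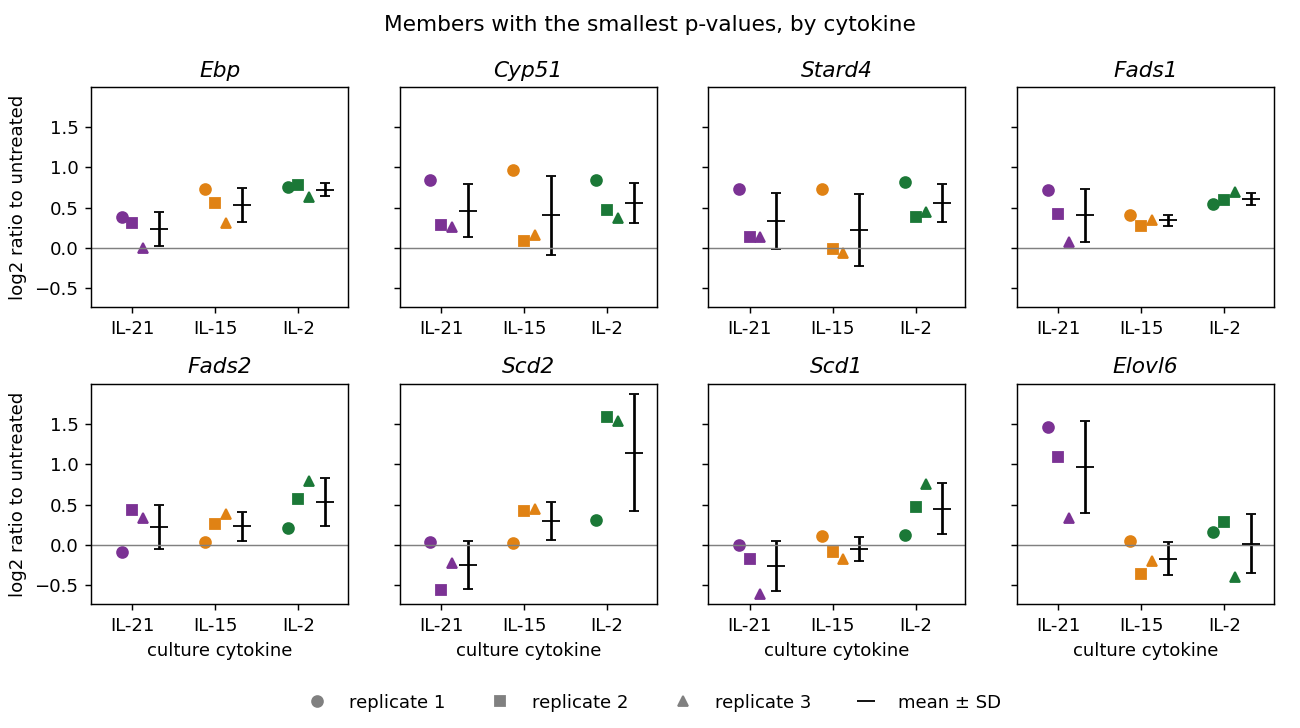
Log2 ratio to untreated cells (y axis) of 8 listed genes after IL-21, IL-15 and IL-2 (x axis). Points are arrays with 1 symbol per replicate, and bars give the mean ± SD over 3 arrays. The 3 IL-2 arrays of Ebp lie between 0.64 and 0.78, those of Scd2 spread between 0.30 and 1.59, and Elovl6 lies above the IL-15 and IL-2 arrays on each of its IL-21 arrays.

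The genes that supply and build fatty acid chains gave 0 calls in any comparison. Acly, which makes cytosolic acetyl-CoA out of citrate, had 0.39, 0.73 and 0.07 after IL-21, 0.14, -0.32 and -0.51 after IL-15, and 0.45, -0.18 and -0.36 after IL-2. Acss2, which makes it out of acetate, had 0.16, 0.48 and 0.19 after IL-21, -0.75, -0.16 and 0.04 after IL-15, and -0.43, 0.13 and -0.11 after IL-2. As a mean over its 2 probes, Acss2 lay higher on all IL-21 arrays than on the others, while Acly overlapped them. The 2 Acss2 probes disagreed: means were 0.70 after IL-21, -0.70 after IL-15 and -0.31 after IL-2 for the first, and -0.15, 0.12 and 0.04 for the second, which runs the other way.

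Acaca, the carboxylase that makes malonyl-CoA, had 0.61, -0.17 and -0.47 after IL-21, 0.60, 0.18 and -0.07 after IL-15, and 0.59, -0.07 and -0.48 after IL-2. Fasn, which builds palmitate, had 0.01, -0.09 and -0.56 after IL-21, 0.44, 0.06 and -0.63 after IL-15, and 0.61, -0.44 and -0.99 after IL-2. In both genes the replicate 1 array was the highest and the replicate 3 array the lowest under each cytokine. Me1, the malic enzyme that supplies NADPH, had -1.53, 0.34 and 0.30 after IL-21, -1.23, -0.45 and 0.92 after IL-15, and 0.05, -0.18 and 1.49 after IL-2. Its arrays spread widely under each cytokine, with SDs of 1.06, 1.09 and 0.90, and the groups overlapped.

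Elongation and desaturation held the 2 listed genes whose means lay furthest apart between cytokines, Scd2 and Elovl6, and limma called 0 of the 7 genes in every comparison. Scd2, a stearoyl-CoA desaturase that makes monounsaturated fatty acids, had 0.03, -0.56 and -0.23 after IL-21, 0.02, 0.42 and 0.44 after IL-15, and 0.30, 1.59 and 1.54 after IL-2. All IL-2 arrays lay above all IL-21 arrays, and the IL-2 array of replicate 1 lay within the range of the IL-15 arrays. The mean after IL-2 was 1.14 ± 0.25 (SE; limma adjusted p = 0.0932), or 1.57 without replicate 1 (adjusted p = 0.0369) and 0.95 without array IL-2 replicate 3 (0.525). Its close paralog Scd1 had -0.01, -0.17 and -0.62 after IL-21, 0.10, -0.09 and -0.18 after IL-15, and 0.12, 0.47 and 0.76 after IL-2. All IL-2 arrays of Scd1 lay above those of both other cytokines, and whether its probe also binds Scd2 RNA was not tested.

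Fads1 and Fads2, desaturases of polyunsaturated fatty acids, were above 0 on 9 and 8 of the 9 arrays. Fads1 had 0.72, 0.43 and 0.07 after IL-21, 0.41, 0.27 and 0.35 after IL-15, and 0.54, 0.59 and 0.69 after IL-2. Its IL-2 arrays lay above all IL-15 arrays and overlapped the IL-21 arrays, and the IL-2 mean was 0.61 ± 0.14 (SE; limma adjusted p = 0.104). Fads2 had -0.09, 0.43 and 0.34 after IL-21, 0.04, 0.26 and 0.39 after IL-15, and 0.21, 0.58 and 0.80 after IL-2. Here the groups overlapped, and the IL-2 mean was 0.53 ± 0.16 (SE; limma adjusted p = 0.258, and 0.0466 with the replicate block).

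Elovl6, which lengthens palmitate to stearate, had 1.47, 1.10 and 0.34 after IL-21, 0.05, -0.36 and -0.21 after IL-15, and 0.16, 0.29 and -0.40 after IL-2. Every IL-21 array was above every array of the other 2 cytokines, whereas in Scd1 and Scd2 every IL-2 array was above every IL-21 array. The IL-21 mean was 0.97 ± 0.22 (SE; limma adjusted p = 0.394), and with quantile normalization of the arrays it was 1.77 (adjusted p = 0.734). Elovl5 had 0.78, -0.06 and -0.14 after IL-21 and Elovl1 0.30, 0.21 and -0.34, and their means lay between 0.02 and 0.19 after the 3 cytokines, with overlapping groups.

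Compared with each other, the cytokines gave no call among the 34 genes. For IL-21 versus IL-2, limma called 0, beside 0.08% of all genes, and its unadjusted p was under 0.05 for 1 gene that was higher after IL-21 (1.51% of all genes) and 4 that were lower (4.46%). The groups did not overlap for 3 genes that were higher after IL-21, Elovl6, Insig1 and, with disagreeing probes, Acss2 (3.18% of all genes). Nor did they for 5 that were lower, Scd2, Scd1, Ebp, Tm7sf2 and Lss (6.53%). For Tm7sf2 this held only for the mean over its probes, and for Insig1 and Lss it did not hold on each probe. The largest differences were -1.40 ± 0.35 for Scd2 (SE; limma adjusted p = 0.280) and 0.95 ± 0.31 for Elovl6 (limma adjusted p = 0.527). Scd1 differed by -0.72 ± 0.23 (limma adjusted p = 0.522) and Ebp by -0.49 ± 0.18 (0.672). The median difference was -0.07 beside -0.05 over all genes, and it was 0.01 after quantile normalization.

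**Figure D3:**
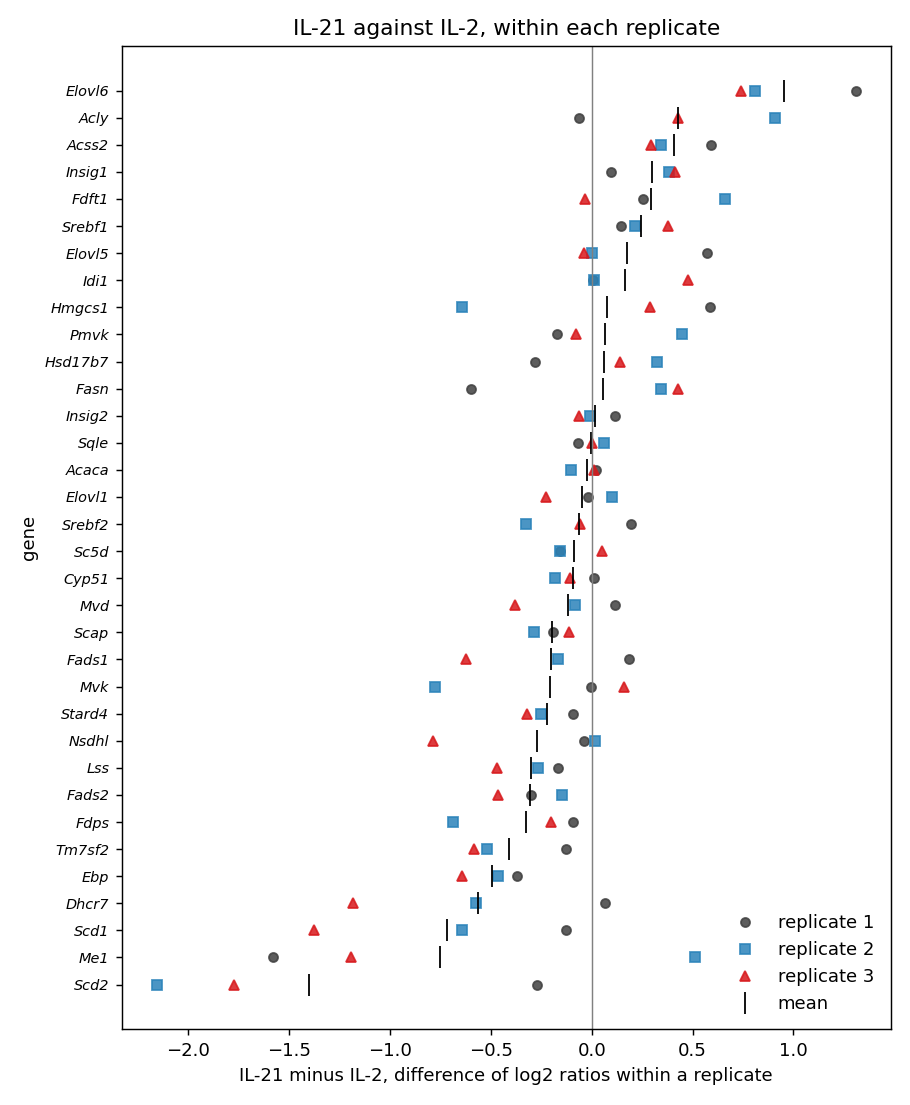
IL-21 minus IL-2, the difference of the log2 ratios of a replicate (x axis), for the 34 genes (y axis, ordered by the mean). Symbols are the 3 replicates and ticks the mean. Elovl6 lies at 1.31, 0.81 and 0.74, and Scd2 at -0.27, -2.16 and -1.77.

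For IL-21 versus IL-15, limma called 0 of the 34 genes, beside 0.0171% of all genes, and its unadjusted p was under 0.05 for 2 higher genes (2.07% of all genes) and 0 lower ones (3.61%). Groups did not overlap for Elovl6, Srebf1 and, with disagreeing probes, Acss2, which were higher after IL-21 (4.43% of all genes). Nor did they, only as a mean over its probes, for Tm7sf2, which was lower (6.24%). Elovl6 differed by 1.14 ± 0.31 (SE; limma adjusted p = 0.413), Acly by 0.63 ± 0.28 (0.892) and Acss2 by 0.57 ± 0.25 (0.876). For IL-15 versus IL-2, limma called 0, beside 0% of all genes, and at an unadjusted p under 0.05 it had 0 of the 34 higher (0.497% of all genes) and 1 lower (0.943%). The 1 was Scd2, at -0.85 ± 0.35 (SE; limma adjusted p = 1.00). Groups did not overlap for Nsdhl, Scd1 and Fads1, all lower after IL-15 (2.87% of all genes), and for no gene that was higher (1.54%). For Nsdhl this held only for the mean over its disagreeing probes. By mean ratio, IL-21 was highest of the 3 cytokines for 11 of the 34 genes, IL-15 for 5 and IL-2 for 18. With the signs of the dye-exchanged arrays turned, IL-21 was highest for 16, IL-15 for 9 and IL-2 for 9.

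Replicate 1 differed for these genes. Its arrays had 29, 28 and 31 of the 34 genes above 0 for IL-21, IL-15 and IL-2, where 44.5, 45.8 and 46.3% of all genes were above 0. The other 6 arrays had between 14 and 23 of the 34 above 0, where 50 to 59.8% of all genes were. Turned, those 6 arrays had between 11 and 20 of the 34 above 0, where 40.2 to 50% of all genes were. In 5 of the 34 genes, Idi1, Acaca, Cyp51, Stard4 and Elovl1, the 3 arrays of replicate 1 lay above all 6 others (14.7%, against 7.51% of all genes). Idi1 averaged 1.12 over the replicate 1 arrays and -0.20 over the others. Replicate 1 has the opposite dye orientation to replicates 2 and 3, so that replicate and dye cannot be told apart.

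**Figure D4:**
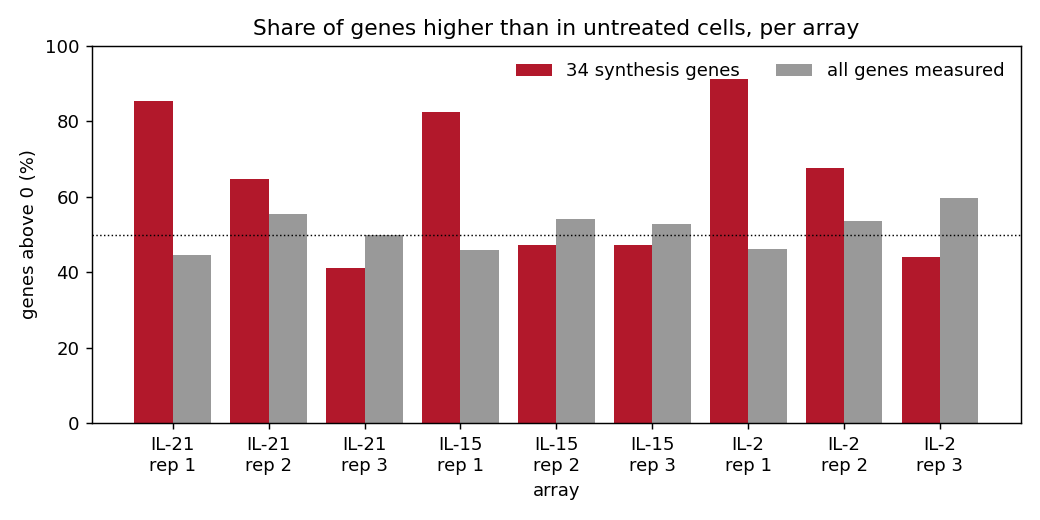
Share of genes with a log2 ratio above 0 (y axis, %) on each of the 9 arrays (x axis), in red for the 34 listed genes and in grey for all 17498 genes. The bars of the listed genes reach 82.4 to 91.2% on the 3 arrays of replicate 1, and 41.2 to 67.6% on the other 6 arrays, with a dotted line at 50%.

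Some markers moved with replicate 1 too. Of 6 CD8+ T cell markers measured, 6 were above 0 on each replicate 1 array, with medians of 0.48, 0.30 and 0.39 for IL-21, IL-15 and IL-2, and in 4 of the 6 the replicate 1 arrays lay above all others. On the other arrays their median lay between -0.29 and 0.18. B cell markers had medians of -0.14, -0.27 and -0.22 on the replicate 1 arrays, and myeloid, CD4+ T and NK markers had medians between -0.48 and 0.01. On the other arrays the B cell medians lay between -0.17 and 0.17, and the medians of those other lists between -0.35 and 0.78. The lowest myeloid and NK markers on the replicate 1 arrays were Lyz2 (-1.64, -0.96 and -1.12) and Klra8 (-0.89, -3.64 and -1.82). On the other arrays Lyz2 lay between -0.003 and 0.655, and Klra8 between -0.347 and 1.188. Medians of the erythroid markers were 0.09, -1.10 and -0.54 on the replicate 1 arrays, and between 0.04 and 0.71 on the other arrays. The part of cell composition in the values of the listed genes was not tested.

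Neighbouring pathways were read from 5 further lists. Of other sterol-regulated genes, 0 of 8 measured passed in any comparison. Erg28, a scaffold of sterol demethylation known from yeast, had 0.70, 0.48 and 0.07 after IL-21, 0.85, 0.35 and 0.07 after IL-15, and 0.60, 0.50 and 0.00 after IL-2. It was thus highest in replicate 1 and near 0 in replicate 3 under all 3 cytokines. The electron supplier Cyb5r3 and the ubiquitin ligase Rnf139 had means between 0.03 and 0.22.

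Of 8 genes for cholesterol export, storage and lysosomal release, limma called 0 in all 6 comparisons. With the replicate block it called Abca1 as higher after IL-2, beside 1.73% of all genes. Abca1, the cholesterol exporter, had -1.03, 1.08 and 0.99 after IL-21, -1.01, 0.73 and 1.08 after IL-15, and 0.20, 1.70 and 1.16 after IL-2. Replicate 1 was lowest under each cytokine, whereas Idi1 and Cyp51 had replicate 1 highest. The IL-2 mean of Abca1 was 1.02 ± 0.51 (SE; limma adjusted p = 0.646), with an adjusted p of 0.0414 under the replicate block and 0.486 under the random block. Npc1, which lets cholesterol leave lysosomes, had -0.13, -0.14 and -0.36 after IL-21, -0.26, 0.09 and 0.09 after IL-15, and 0.02, 0.33 and 0.60 after IL-2. The lysosomal lipase Lipa had means of -0.23, -0.23 and -0.40 after IL-21, IL-15 and IL-2. With the signs as taken it was below 0 on all 9 arrays, a share not counted over all genes.

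Of 7 genes of the non-sterol branch, 0 passed in any comparison. Coq2, of ubiquinone synthesis, had 0.25, -0.06 and -0.24 after IL-21, 0.84, 0.37 and 0.26 after IL-15, and 0.35, -0.12 and -0.19 after IL-2. Within each replicate it was highest after IL-15. Ggps1, which makes geranylgeranyl diphosphate, had means of 0.35 after IL-21, -0.07 after IL-15 and 0.03 after IL-2, and Dhdds, of dolichol synthesis, had 0.10, 0.34 and 0.13.

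Of 12 fatty acid oxidation genes, 1 passed the test after IL-2 and rose, as did 0.76% of all genes, and none passed in the other comparisons. Acadl, a long-chain acyl-CoA dehydrogenase, had 0.62, 0.76 and 1.21 after IL-21, 1.00, 0.36 and 0.25 after IL-15, and 0.91, 1.57 and 1.10 after IL-2. With the signs as taken it was above 0 on all 9 arrays, as were 1.5% of all genes, and it rose after IL-2 by 1.19 ± 0.19 (SE; limma adjusted p = 0.0359). The limma adjusted p was 0.0590, 0.709 and 0.419 without replicate 1, 2 and 3, and 0.206 without the IL-2 array of replicate 3, where the value was 1.24. Acaa2, the last thiolase of the cycle, had means of 0.13 after IL-21, 0.29 after IL-15 and 0.67 after IL-2 (limma adjusted p = 0.101 after IL-2). Acadm, the medium-chain dehydrogenase, had 0.63, -0.10 and 0.29.

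Of 15 genes for fatty acid uptake, activation and glycerolipids, 1 passed the test after IL-2 and rose, as did 0.76% of all genes. Mid1ip1, which promotes assembly of acetyl-CoA carboxylase into active filaments, had 0.50, -0.13 and -0.45 after IL-21, 1.11, 0.61 and 0.50 after IL-15, and 1.00, 1.49 and 0.94 after IL-2. All IL-2 arrays were above all IL-21 arrays, as for Ebp, Scd1 and Scd2. Mid1ip1 rose after IL-2 by 1.14 ± 0.21 (SE; limma adjusted p = 0.0477), and IL-21 minus IL-2 was -1.17 ± 0.29 (limma adjusted p = 0.275). Its adjusted p after IL-2 was 0.0728, 0.817 and 0.419 without replicate 1, 2 and 3, and 0.213 without the IL-2 array of replicate 3. Idh1, a source of cytosolic NADPH, had means of 0.01, 0.02 and 0.45 after IL-21, IL-15 and IL-2, and the fatty acid carrier Fabp5 had -0.34, 0.36 and -0.26.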

How the data were processed

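The data are 9 two-colour arrays of mouse CD8+ T cells. The authors deposited 1 value per probe and array, taken here as a log2 ratio of the 2 channels because the 36547 values per array are signed and run from -8.01 to 8.78. The sources used here do not name the background correction, the normalization or the log base. Per the labels' protocols, amplified RNA was dye-coupled through amino allyl groups. Groups and replicate numbers came from the sample titles. Gene names came from the platform annotation, brought up to date through Entrez IDs: 26885 probes with 1 symbol were used, 203 had several, 9418 were unnamed, and 42 control probes were left out. Values of a gene's probes were averaged, giving 17498 genes. Without intensities, dim probes could not be removed. Precision is limited by the number of arrays.

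Tests used limma 3.58.1 (R 4.3.3; lmFit, contrasts.fit, eBayes), with 1 coefficient per cytokine over 9 arrays, no block and no dye term, in 6 two-sided comparisons adjusted by Benjamini-Hochberg over all genes at 0.05. The script was tested on simulated data. Same-numbered arrays deviated together from their group means (correlations 0.15 to 0.65, every pair above 0.1). They also share a dye orientation, so these correlations cannot show that the replicate number pairs the arrays. The fit with the replicate number as a block is printed where it changes a call. As a fixed block it takes the spread between replicates out of the error. For a ratio to untreated cells its p therefore does not measure variation over biological replicates. The listed genes, the further lists, the markers and the rule for named genes were chosen with earlier results of these data known. Named in full are listed genes past the threshold and the 5 with the smallest p per comparison, with values of the other members added, and up to 3 genes per further list. The alternatives were quantile normalization, median centring, the median over probes, the most variable probe, a fixed and a random replicate block, a dye term, turned signs on dye-exchanged arrays, and leaving out each replicate or array IL-2 replicate 3. Promoters are from RefSeq (GRCm38.p6); 28 of the 35 listed genes had a window.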

Additional observations from a re-analysis of the deposited data

How the results depend on the processing

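Among the 34 genes, the count called after IL-2 was 1, and it was 0 with quantile normalization, median centring, the most variable probe or turned signs, 4 with the fixed and 1 with the random replicate block, 3 with the dye term, and 0 to 1 when a replicate or array IL-2 replicate 3 was left out. The gene called without replicate 1 was Scd2, and the dye term called Ebp, Cyp51 and Stard4. With the dye term the medians of the 34 after IL-2, IL-15 and IL-21 were 0.1988, 0.1166 and 0.1395. Ebp and Abca1 after IL-2 were 0.7574 and 0.7322 with it, against 0.7249 and 1.0213 in the main fit. The other 5 comparisons gave 0 calls under every alternative. Ebp after IL-2 was -0.22 with turned signs (limma adjusted p = 0.820), and its limma adjusted p was 0.306 with quantile normalization, 0.0947 with median centring and 0.0854 with the most variable probe. Ebp has 1 probe, so the most variable probe left its value at 0.7249, and only the probes taken for other genes differed. With turned signs the median of the 34 was 0.013 for IL-2, 0.0846 for IL-21 versus IL-2 and 0.0741 for IL-15 versus IL-2. For IL-21 versus IL-2 the median was 0.0064 with quantile normalization and -0.1308 with the most variable probe, and it lay between -0.1905 and -0.034 in the fits that left out arrays. For IL-15 those fits gave -0.0207 (without replicate 1) to 0.132, for IL-21 0.0179 to 0.2351, and for IL-2 0.1153 to 0.2211. The same alternatives, applied to Acadl, Mid1ip1 and Abca1 after seeing the data, gave -0.5834, -0.4761 and -0.886 with turned signs after IL-2. For Acadl and Mid1ip1 the limma adjusted p was 0.207 and 0.296 with quantile normalization, 0.0832 and 0.0621 with the random block, and 0.337 and 0.0687 with the most variable probe. Median centring gave 0.0445 for Acadl and 0.0771 for Mid1ip1. Of 35 values of named genes, turned signs moved 29 and reversed 3. Acss2 for IL-21 versus IL-15 was 1.40 with the most variable probe. Over all genes the replicate block raised the calls after IL-2 to 303 higher and 39 lower, against 133 and 7 without it, and after IL-15 to 109 and 13, against 22 and 0. It gave 11 higher and 12 lower after IL-21, 5 and 87 for IL-21 versus IL-2, and 4 and 28 for IL-21 versus IL-15, against 0 and 0, 1 and 13, and 0 and 3 without it. Apart from Cyp51, Stard4 and Fads2 after IL-2, the block changed no call among the 34 genes. The causes were not tested. With 3 arrays per cytokine a p above the threshold does not show that values did not differ.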
